A study of Mus musculus with 14 samples.

Results

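The genes described here are 36 members of the tumour necrosis factor (TNF) ligand and receptor superfamily, out of 22180 genes measured on expression arrays of mouse aorta and blood CD115+ cells. Membership followed from the gene symbol alone: 28 symbols begin with Tnfsf (ligands) or Tnfrsf (receptors), and 8 more family genes carry other symbols (Cd27, Cd40, Cd40lg, Cd70, Fas, Fasl, Eda2r and Ngfr). The rule left out 1 gene with such a symbol. The members comprise 25 receptors and 11 ligands, each read by 1 probe set.

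All mice were male, lacked apolipoprotein E (ApoE) and ate a Western diet rich in fat and cholesterol for 4 weeks from 8 weeks of age, so that tissue was taken at 12 weeks. Mice without ApoE accumulate cholesterol-rich lipoproteins and develop atherosclerosis. The test group also lacked the lymphotoxin beta receptor (LTbR, gene Ltbr), itself a TNF superfamily receptor, and is called double-deficient below. Its controls were littermates that lacked ApoE only. The labels name no cell type restriction for either deficiency. The aorta, homogenised together with its perivascular fat, gave 4 double-deficient and 4 ApoE-deficient samples, each labelled a single sample. Cells bearing CD115, the receptor for colony-stimulating factor 1 found on blood monocytes, were taken from blood with magnetic beads after a Ficoll gradient, giving 3 preparations per genotype. Among the ApoE-deficient preparations, replicates 3 and 4 were each pooled from 2 littermates, and replicate 1 and all double-deficient preparations were single samples. The arrays hold no wild-type mice and no mice lacking LTbR alone.

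TNF superfamily ligands are mostly membrane-bound trimers that cluster their receptors on another cell. The receptors either recruit TRAF adaptor proteins, which switch on NF-kB and survival or costimulatory programmes, or carry a cytoplasmic death domain that can lead to caspase activation. In arteries with atherosclerosis, several of these pairs are known from lymphocytes and macrophages (CD40 and its ligand, CD27 and CD70, BAFF and its receptors), and others from vessel wall cells (osteoprotegerin, the TNF receptors).

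The values are log values read here as log2, and each probe set had been centred so that its median was 0 within 1e-06 in each tissue. A value of 0.5 in an array thus means 0.5 log2 units above the middle of that tissue, and nothing in it tells how strongly a gene is expressed. Levels of different genes cannot be compared, and the labelled tissue and cell type could not be checked against the levels of their markers. Since the middle of each tissue is 0, groups of equal size that do not overlap lie on opposite sides of it. Differences below are double-deficient minus ApoE-deficient. In whole tissue, fewer cells of a type and less RNA per cell cannot be told apart.

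Ltbr, the gene deleted in the test group, was lower in every double-deficient array of both tissues. In aorta it read -0.98, -1.10, -1.29 and -0.49 in double-deficient replicates 1 to 4, against 0.63, 0.49, 0.70 and 0.89 in the controls. The difference was -1.64 ± 0.17 (SE, n = 4 per group), 3.12-fold, with an adjusted p of 0.0679 by limma and an exact permutation p of 0.0286, the smallest that 4 against 4 allows. In CD115+ cells the difference was -0.72 ± 0.18 (SE, n = 3 per group), with an exact permutation p of 0.1, the smallest that 3 against 3 allows. The labels do not say which part of Ltbr was removed, so some of its probes may lie outside the deletion. Over all 22180 genes, 1 gene in aorta (0.00451%) and 0 in CD115+ cells passed an adjusted p of 0.05. At an unadjusted p under 0.05 there were 1713 genes in aorta and 974 in CD115+ cells. Without ApoE-deficient aorta replicate 3 the aorta count past the adjusted threshold was 74, without double-deficient replicate 4 it was 3, and with any other aorta left out it was 0.

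Promoter sequences were available from RefSeq (GRCm38.p6) for 27 of the 36 members, with 31 start sites. The 250 bases upstream of the start are shown for 5 of the 8 members with an unadjusted p under 0.05 between the aortas of the 2 genotypes (the 3 others had no entry). Each reads 5′ to 3′ towards the start of transcription, and capitals mark a GC box (GGGCGG) or a TATA box (TATAAA) on either strand. Cd27 lies on the minus strand at chr6:125237028-125237277, Tnfrsf13c on the minus strand at chr15:82224381-82224630, Tnfsf11 on the minus strand at chr14:78308044-78308293, Tnfrsf18 on the plus strand at chr4:156026072-156026321 and Ngfr on the minus strand at chr11:95587699-95587948.
Cd27: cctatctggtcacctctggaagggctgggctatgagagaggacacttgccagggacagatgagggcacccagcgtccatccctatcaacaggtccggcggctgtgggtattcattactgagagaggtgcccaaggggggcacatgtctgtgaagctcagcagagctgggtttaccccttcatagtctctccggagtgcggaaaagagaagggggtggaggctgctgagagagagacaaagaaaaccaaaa
Tnfrsf13c: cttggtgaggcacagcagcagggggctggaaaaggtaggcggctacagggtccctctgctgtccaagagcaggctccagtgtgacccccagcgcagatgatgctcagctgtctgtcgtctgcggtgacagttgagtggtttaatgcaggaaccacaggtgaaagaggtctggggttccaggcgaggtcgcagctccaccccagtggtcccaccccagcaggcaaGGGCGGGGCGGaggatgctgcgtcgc
Tnfsf11: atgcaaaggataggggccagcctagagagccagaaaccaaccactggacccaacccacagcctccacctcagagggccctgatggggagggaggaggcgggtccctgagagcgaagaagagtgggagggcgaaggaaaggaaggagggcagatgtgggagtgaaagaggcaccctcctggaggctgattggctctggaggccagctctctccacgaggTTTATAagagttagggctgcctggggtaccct
Tnfrsf18: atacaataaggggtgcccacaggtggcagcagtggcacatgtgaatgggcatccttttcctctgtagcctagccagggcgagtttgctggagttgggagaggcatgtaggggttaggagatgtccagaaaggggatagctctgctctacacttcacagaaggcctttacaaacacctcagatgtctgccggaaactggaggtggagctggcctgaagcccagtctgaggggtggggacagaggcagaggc
Ngfr: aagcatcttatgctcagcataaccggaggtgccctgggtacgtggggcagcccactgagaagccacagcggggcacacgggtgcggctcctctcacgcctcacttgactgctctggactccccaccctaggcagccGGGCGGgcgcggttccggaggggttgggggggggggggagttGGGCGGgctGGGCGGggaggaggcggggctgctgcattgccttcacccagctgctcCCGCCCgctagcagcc

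The printed promoters differ in base content. Ngfr has 70.4% G and C and holds 4 GC boxes, while Tnfrsf13c has 63.2% and holds 2 that overlap, just before the start. Tnfsf11 has 60.4% and a TATA box motif on the opposite strand, read as TTTATA here, that begins at position -32 relative to the start. Cd27 and Tnfrsf18, at 56.0% each, hold neither motif, and the median over all 32851 mouse promoters of this length is 52.4%. A GC box occurs in 14 of the 31 member promoters and in 32.7% of all promoters, and a TATA box in 5 of 31 and in 12.4%. The NF-kB consensus occurs in 3 member promoters (Tnfrsf25, Tnfrsf8 and Tnfrsf9) and in 7.25% of all, and the AP-1 motif TGANTCA in 4 (Fas, Tnfrsf8, Tnfrsf9 and Tnfsf13b) and in 6.75%. None of the 5 printed windows holds the NF-kB consensus, which says only that these letters are not in these windows.

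In aorta, no member passed the adjusted threshold, the smallest adjusted p being 0.423 by limma (Cd27). Of the 36 members, 25 had a negative difference and 11 a positive one, with a median of -0.050 beside 0.0083 over all genes. An unadjusted p under 0.05 was reached by 8 members, 6 lower and 2 higher in double-deficient aorta, beside a background of 7.72% of all genes (3.81% lower, 3.91% higher). As a share of the members this is 22.2%. The groups did not overlap for 6 members, 4 lower and 2 higher, or 16.7% of the members beside a background of 4.3% (2.11% lower, 2.19% higher). Those with non-overlapping groups were Cd27, Tnfsf11, Cd40lg and Tnfrsf18 (lower) and Ngfr and Tnfrsf11b (higher). The groups of Tnfrsf13c and Cd40, which were also lower at an unadjusted p under 0.05, overlapped.

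**Figure D1:**
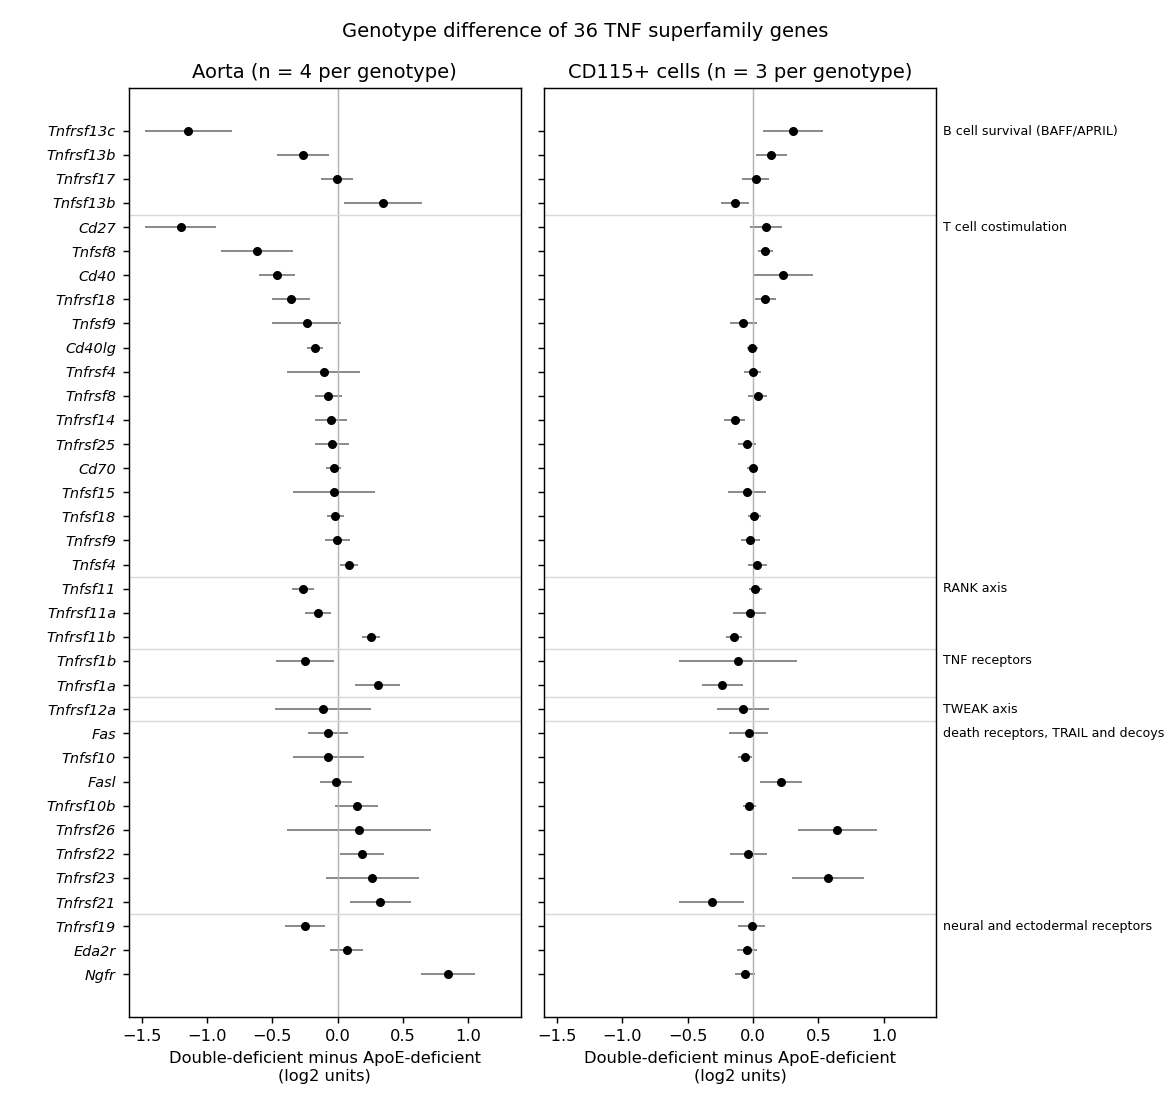
Difference between double-deficient and ApoE-deficient samples (log2 units, horizontal axis) for the 36 members, grouped by role, in aorta and in CD115+ cells. Points are differences and bars are ± 1 SE from limma (4 per group in aorta, 3 in CD115+ cells). In aorta Cd27 (-1.20) and Tnfrsf13c (-1.15) lie farthest to the left and Ngfr (0.84) farthest to the right, while in CD115+ cells all members lie between -0.32 and 0.64.

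The costimulatory pairs of T cells and their partners were lower in value in double-deficient aorta for 14 of 15 members, with a median difference of -0.072. Over all 22180 genes, 10462 were lower in value, with a median of 0.0083. Of the 15 members, 4 reached an unadjusted p under 0.05, beside 7.72% of all genes. Several of the 15 differences were small beside their SE. Cd27, a costimulatory receptor of T cells and natural killer cells, read -0.20, -0.22, -0.40 and -0.86 in double-deficient aorta and 0.20, 1.22, 0.47 and 1.24 in the controls. Every double-deficient aorta lay below every control, and control replicates 1 and 3 lay closest to them. The difference was -1.20 ± 0.27 (SE, n = 4 per group, 95% interval -1.83 to -0.58), 2.30-fold, with an adjusted p of 0.423 by limma and an exact permutation p of 0.0286. Cd70, which encodes the ligand of CD27, differed by -0.030 ± 0.057 (SE), with an interval of -0.16 to 0.10.

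CD40 is the receptor on B cells, macrophages and dendritic cells that receives T cell help. Cd40 read 0.034, -0.20, -0.28 and -0.063 in double-deficient aorta and 0.51, 0.51, -0.034 and 0.35 in the controls. The groups overlapped through control replicate 3, the only control below 0, and double-deficient replicate 1. The difference was -0.46 ± 0.14 (SE, n = 4 per group), with an adjusted p of 0.491 by limma and an exact permutation p of 0.0571. Cd40lg, its ligand on activated T cells and platelets, read -0.038, -0.080, -0.073 and -0.068 against 0.087, 0.038, 0.24 and 0.081. Its groups did not overlap, and the difference was small, -0.18 ± 0.063 (SE, n = 4 per group, limma adjusted p = 0.564). With the replicate number as a block its unadjusted limma p was 0.0641, against 0.0242 without.

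Tnfrsf18 encodes GITR, a costimulatory receptor abundant on regulatory T cells. It read -0.67, -0.22, -0.087 and -0.022 in double-deficient aorta and 0.068, 0.051, 0.022 and 0.28 in the controls. The groups did not overlap, but double-deficient replicate 1 lay far below the others. The difference was -0.36 ± 0.15 (SE, limma adjusted p = 0.623), and -0.22 without that aorta. With 1 aorta left out, its unadjusted limma p stayed under 0.05 only without double-deficient replicate 3 or 4. Tnfsf18, its ligand, differed by -0.020 ± 0.066, and Tnfrsf4 (OX40), the gene next to Tnfrsf18 on the chromosome, by -0.11 ± 0.28.

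The ligand of CD30, encoded by Tnfsf8 and made by activated lymphocytes and myeloid cells, read 0.099, -0.34, -0.18 and -0.37 in double-deficient aorta and 0.45, 1.23, 0.021 and -0.021 in the controls. The high value of control replicate 2 set it apart, and the groups overlapped. The difference was -0.62 ± 0.27 (SE, limma adjusted p = 0.654), and its receptor gene Tnfrsf8 differed by -0.072 ± 0.10. In this role the positive value was that of Tnfsf4 (OX40 ligand), 0.088 ± 0.071. The remaining members, Tnfsf9, Tnfrsf9, Tnfsf15, Tnfrsf25 and Tnfrsf14 (a receptor also known as HVEM), lay between -0.24 and -0.0016.

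**Figure D2:**
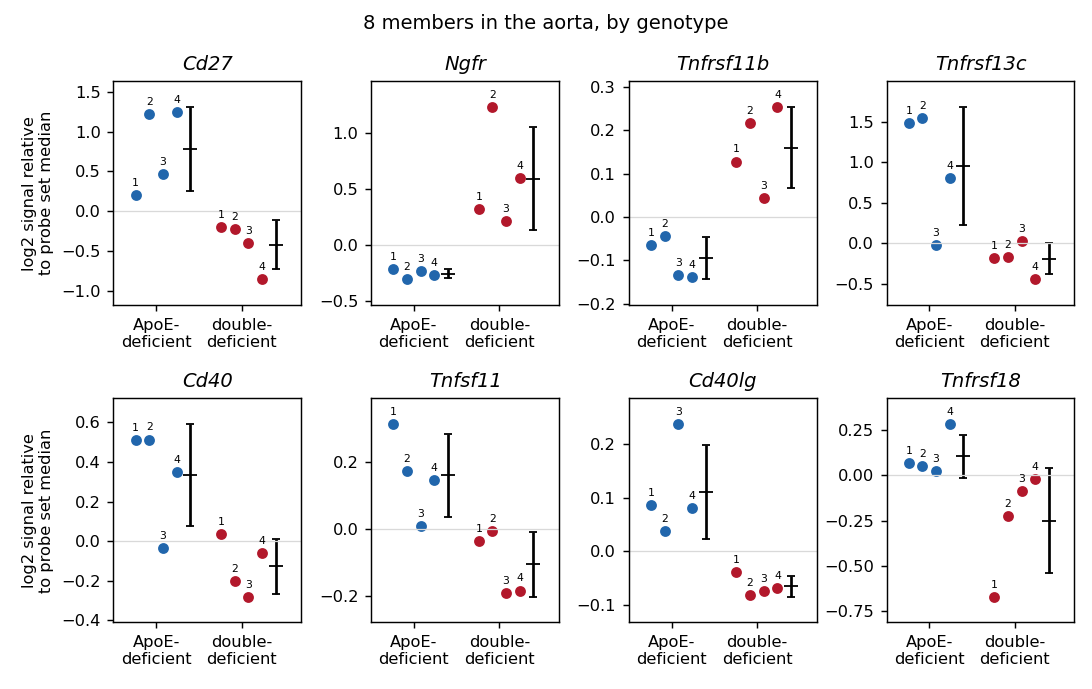
Centred log2 values (vertical axis) of the 8 members with an unadjusted p under 0.05, 1 point per aorta, double-deficient beside ApoE-deficient, with mean ± SD (n = 4 per group). The groups do not overlap for 6 of the 8, whereas 1 ApoE-deficient aorta falls among the double-deficient ones for Tnfrsf13c and Cd40.

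Among the genes of B cell survival, Tnfrsf13c stood out. It encodes the BAFF receptor, which mature B cells need to survive. It read -0.19, -0.17, 0.021 and -0.45 in double-deficient aorta and 1.48, 1.54, -0.021 and 0.81 in the controls. Of the controls 3 lay well above all double-deficient aortas, and control replicate 3 lay among them. The difference was -1.15 ± 0.33 (SE, n = 4 per group), 2.21-fold, with an adjusted p of 0.480 by limma and an exact permutation p of 0.0571. Without control replicate 3 it was -1.47 ± 0.20, with an adjusted p of 0.0510, when 9.79% of all genes had an unadjusted p under 0.05. That adjusted p is the lowest of the 14 alternatives run for Tnfrsf13c, whose highest was 0.761. TACI, the receptor for BAFF and APRIL encoded by Tnfrsf13b, differed by -0.26 ± 0.20, and BCMA (Tnfrsf17), the plasma cell receptor, by -0.0047 ± 0.13. Tnfsf13b, the gene of BAFF itself, differed by 0.35 ± 0.30, with values from -0.18 to 0.78 in double-deficient aorta and from -0.76 to 0.55 in the controls. None of these 3 differences exceeded the spread between aortas.

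Markers of lymphocytes and of several other cell types were lower in value in double-deficient aorta. The mean of 10 measured B cell markers was -0.37, -0.35, -0.13 and -0.20 in double-deficient aorta and 2.08, 2.09, -0.16 and 1.34 in the controls, and 9 of the 10 were lower in value, 8 at an unadjusted p under 0.05. The mean of 8 measured T cell markers was -0.26, -0.35, -0.93 and -1.04 against 1.28, 1.36, -0.0097 and 0.84, with 8 of 8 lower in value and 7 at an unadjusted p under 0.05. In both lists ApoE-deficient replicate 3 was the lowest control, as it was for Tnfrsf13c and Cd40. Tnfsf11 (0.0081) and Tnfrsf18 (0.022) also had their lowest control in replicate 3, whereas Cd40lg had its highest control there (0.24). Cd27 and Tnfsf8 followed another order, with their lowest controls in replicates 1 and 4. The mean of 5 markers of high endothelial venules and lymphoid stroma was -0.078, -0.56, -0.45 and -0.78 against 1.07, 0.93, -0.21 and 1.09. Of these, 5 of 5 were lower in value and 2 had an unadjusted p under 0.05. Their differences ran from -4.06 to -0.098, with a median of -0.49 and a mean of -1.19. Lower values were also found for 8 of 8 natural killer cell markers, 6 of 6 of plasma cells and 5 of 6 of dendritic cells. Over all 22180 genes, 10462 were lower in value in aorta and 7.72% had an unadjusted p under 0.05. Monocyte and macrophage markers were split, with 6 of 10 lower. Their list means ran from -0.34 to 0.61 in double-deficient and from -0.13 to 0.30 in control aorta. Skeletal muscle markers were lower for 6 of 6 (median -1.46), with list means spread from -1.52 to 1.37 in double-deficient and from -1.50 to 2.15 in control aorta. ApoE-deficient replicate 3 was the lowest control for the plasma cell, dendritic cell and lymphoid stroma lists too. The same held for the natural killer cell, monocyte and macrophage, neutrophil and fibroblast lists. Because values are centred, no marker can be said to be present or absent. The part of these cell types in the differences of Cd27, Tnfrsf13c, Cd40, Cd40lg, Tnfsf8, Tnfsf11 and Tnfrsf18 was not tested.

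**Figure D3:**
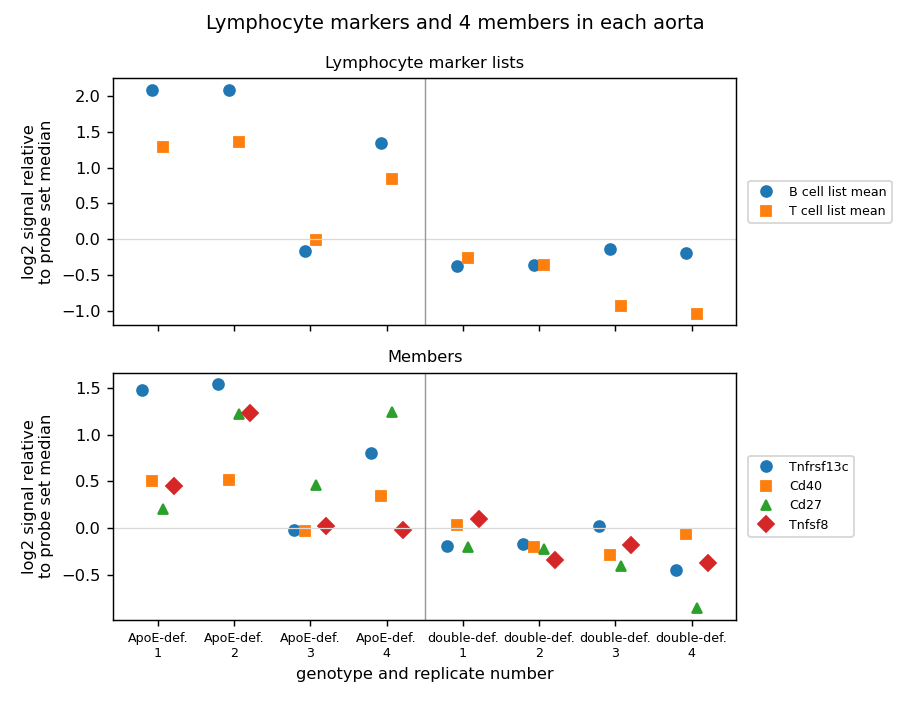
Centred log2 values (vertical axis) in each of the 8 aortas, with the means of the B cell and T cell marker lists above and Tnfrsf13c, Cd40, Cd27 and Tnfsf8 below. ApoE-deficient replicate 3 is the lowest control for both marker lists (-0.16 and -0.0097), for Tnfrsf13c (-0.021) and for Cd40 (-0.034), but not for Cd27 (0.47).

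The RANK axis, which governs osteoclasts, lymph node formation and vascular calcification, differed by member. Tnfrsf11b encodes osteoprotegerin, a secreted decoy receptor for RANK ligand made by smooth muscle and other stromal cells. It read 0.13, 0.22, 0.044 and 0.25 in double-deficient aorta and -0.063, -0.044, -0.13 and -0.14 in the controls. All double-deficient aortas lay above all controls, the closest values being 0.044 and -0.044. The difference of the means was small, 0.26 ± 0.068 (SE, n = 4 per group), 1.19-fold, with an adjusted p of 0.461 by limma. Beside it, 7 of 7 smooth muscle markers had positive differences (median 0.29), with list means of -0.024 to 0.40 in double-deficient and -0.29 to 0.043 in control aorta. Positive differences were also found for 7 of 7 endothelial, 5 of 6 fibroblast and 5 of 8 adipocyte markers, and for 11718 of all 22180 genes. The part of these cell types in the Tnfrsf11b difference was not tested.

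RANK ligand itself, encoded by Tnfsf11 and made by T cells and stromal cells, had the opposite sign. It read -0.038, -0.0081, -0.19 and -0.18 in double-deficient aorta and 0.31, 0.17, 0.0081 and 0.14 in the controls. The groups did not overlap, but double-deficient replicate 2 and control replicate 3 nearly met. The difference was -0.26 ± 0.085 (SE, limma adjusted p = 0.534), 1.20-fold. Tnfrsf11a, the RANK receptor, differed by -0.15 ± 0.10, and its control replicate 1 stood apart from the rest.

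Ngfr encodes the low-affinity neurotrophin receptor, found on Schwann cells, neurons and some stromal and perivascular cells. It read 0.32, 1.23, 0.21 and 0.60 in double-deficient aorta and -0.21, -0.30, -0.23 and -0.26 in the controls. The controls were close together and the double-deficient aortas spread above them, with replicate 2 highest. The difference was 0.84 ± 0.21 (SE, n = 4 per group, 95% interval 0.37 to 1.32), 1.80-fold, with an adjusted p of 0.460 by limma and an exact permutation p of 0.0286. The mean of 5 measured markers of Schwann cells and neurons followed the same split, at 0.18, 0.53, 0.084 and 0.26 against -0.23, -0.31, -0.0024 and -0.13, also with replicate 2 highest. Of these 5 markers, 4 were higher in value and 1 lower, and 2 had an unadjusted p under 0.05. Over all 22180 genes, 11718 were higher in value and 7.72% had an unadjusted p under 0.05. The part of nerve tissue in the Ngfr difference was not tested. The other receptors of this role, Eda2r (a receptor for an ectodysplasin isoform) and Tnfrsf19 (TROY), differed by 0.068 ± 0.12 and -0.25 ± 0.15.

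Death receptors, the TRAIL ligand and the decoy receptors showed no difference beyond the spread between aortas: 5 of 8 had positive values, the median was 0.15, and none had an unadjusted p under 0.05. Fas, the receptor through which cytotoxic T cells kill, differed by -0.074 ± 0.15 and its ligand Fasl by -0.015 ± 0.12. Tnfsf10 (TRAIL) differed by -0.072 ± 0.27 and its death receptor Tnfrsf10b by 0.15 ± 0.16. Tnfrsf21 (death receptor DR6) differed by 0.33 ± 0.23. The mouse decoy receptors Tnfrsf22 and Tnfrsf23 and their relative Tnfrsf26, which are adjacent in the genome and similar enough in sequence that their probes may cross-react, differed by 0.19 ± 0.17, 0.26 ± 0.36 and 0.16 ± 0.55.

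The TNF receptors proper gave opposite signs in aorta, each with a 95% interval that included 0. Tnfrsf1a, the death domain receptor present on most cells, differed by 0.31 ± 0.17 (SE, 95% interval -0.091 to 0.70), and Tnfrsf1b, the receptor enriched on leukocytes, by -0.25 ± 0.22 (interval -0.76 to 0.26). Tnfrsf12a, the receptor of TWEAK (Fn14), differed by -0.11 ± 0.37. Its wide error came from values between -0.88 and 0.59 in which both genotypes were spread over most of the range.

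Cd27 and Tnfrsf1a flank Ltbr on mouse chromosome 6, with 1 protein-coding gene between each of them and Ltbr. Of the 10 protein-coding genes within 5 on either side of Ltbr, 9 were measured, and 1 (Cd27) had an unadjusted p under 0.05 in aorta, beside 7.72% of all genes. In CD115+ cells it was also 1, Vamp1 (0.17 ± 0.068), beside 4.39%. In aorta the genes in between differed little beside their errors: Tapbpl by -0.054 ± 0.28 and Scnn1a by 0.20 ± 0.48. Without Cd27 and Tnfrsf1a, 7 of 34 members had an unadjusted p under 0.05 in aorta. In CD115+ cells, Cd27 differed by 0.098 ± 0.12 and Tnfrsf1a by -0.23 ± 0.16. A long non-coding gene overlaps Cd27, and signal from the pair cannot be told apart with certainty.

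The members also differed in how far replicates of one genotype lay apart. Their median within-group SD in aorta was 0.245, beside 0.191 over all genes, and 11 of 36 had an SD over 0.4. The most variable were Tnfrsf26 (0.89), Tnfrsf12a (0.59) and Tnfrsf23 (0.57). In CD115+ cells the median SD was 0.139, beside 0.110 over all genes, and Tnfrsf1b (0.66) and Tnfrsf26 (0.44) were the 2 members over 0.4.

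In CD115+ cells, no member had an unadjusted p under 0.05, beside a background of 4.39% of all genes, and the smallest adjusted p of a member was 0.976 by limma. Negative differences were found for 22 members and positive ones for 14, with a median of -0.017 beside -0.011 over all genes. The groups did not overlap for 1 member, or 2.78%, beside a background of 9.16% (3.93% higher). That member was Tnfrsf23, a decoy receptor for TRAIL, which read 1.09, 0.088 and 0.15 in double-deficient cells and -0.088, -0.11 and -0.19 in the controls. Double-deficient replicate 1 was far above all others, and the remaining values lay close to 0. The difference was 0.57 ± 0.27 (SE, n = 3 per group), 1.49-fold, with an exact permutation p of 0.1, and 0.25 without that replicate.

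The receptors expressed by B cells did not separate the genotypes in CD115+ cells. Tnfrsf13c read -0.29, 0.52 and 0.34 in double-deficient cells and 0.080, -0.080 and -0.35 in the controls, a difference of 0.31 ± 0.23 (SE, n = 3 per group). Cd40 read -0.26, 0.60 and 0.16 against 0.16, -0.18 and -0.16, a difference of 0.23 ± 0.23. In both genes the groups overlapped, with double-deficient replicate 1 the lowest or among the lowest and replicate 2 the highest. Tnfrsf13b also had double-deficient replicate 1 lowest and replicate 2 highest, at -0.15, 0.29 and 0.20 against -0.0043, 0.0043 and -0.079. Tnfrsf17 had another order, 0.12, -0.12 and -0.045 against 0.058, 0.045 and -0.20. The mean of the B cell markers was -0.25, 1.74 and 0.93 in double-deficient and 0.25, -0.78 and -0.78 in control preparations, with 10 of 10 genes higher in value, and that of the T cell markers was 0.035, 0.59 and 0.18 against -0.031, -0.24 and -0.25, with 8 of 8. CD115 beads select monocytes, and the part of remaining lymphocytes in these values was not tested.

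**Figure D4:**
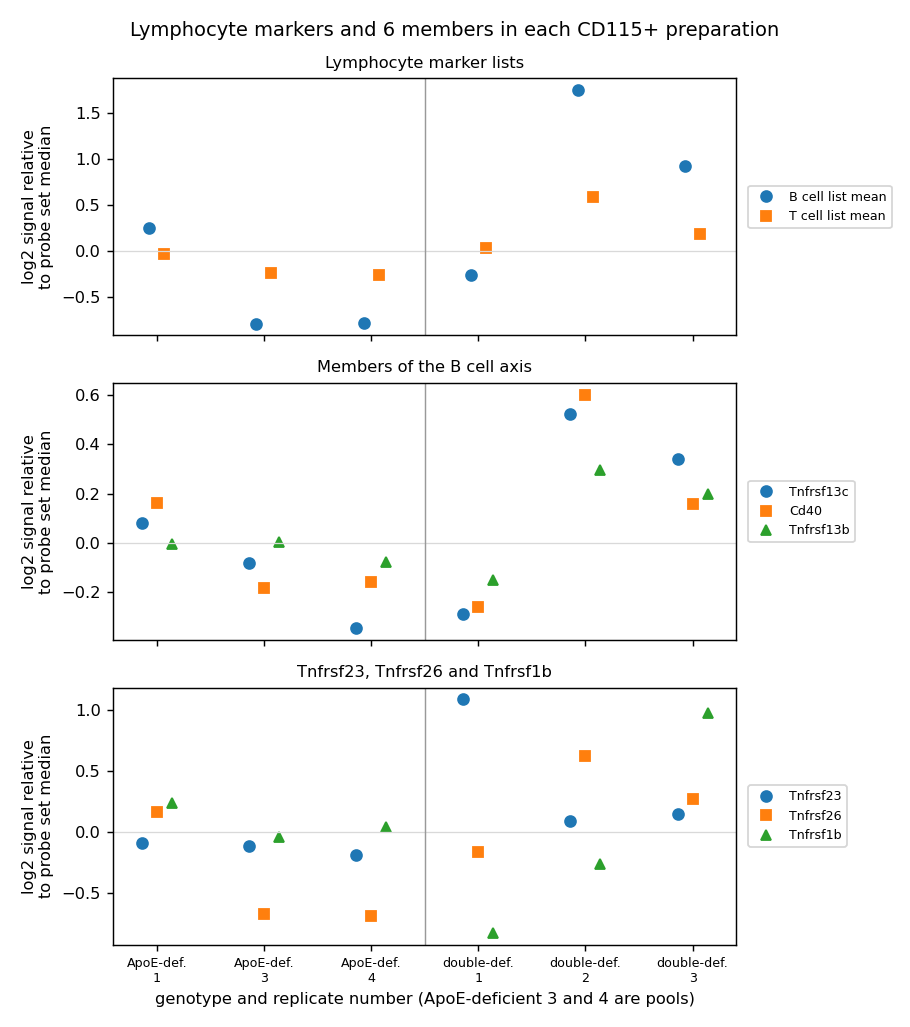
Centred log2 values (vertical axis) in the 6 CD115+ preparations for the B cell and T cell marker means, for Tnfrsf13c, Cd40 and Tnfrsf13b, and for Tnfrsf23, Tnfrsf26 and Tnfrsf1b. Double-deficient replicate 1 has the lowest B cell marker mean of its group (-0.25) and the highest Tnfrsf23 value (1.09), and Tnfrsf1b spans -0.83 to 0.98 within the double-deficient group.

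Of the other receptors, 4 are given in full, chosen after their values were seen. Tnfrsf1b, which monocytes express, read -0.83, -0.26 and 0.98 in double-deficient cells and 0.24, -0.042 and 0.042 in the controls. The double-deficient values lay on both sides of the controls, and the difference was -0.12 ± 0.45 (SE, n = 3 per group, 95% interval -1.22 to 0.99). Tnfrsf1a read -0.18, -0.50 and 0.11 against 0.13, -0.058 and 0.058 and Tnfrsf21 read -0.58, -0.23 and 0.29 against 0.43, -0.10 and 0.10, both with overlapping groups. Tnfrsf26 read -0.16, 0.63 and 0.27 against 0.16, -0.67 and -0.69, a difference of 0.64 ± 0.30 that was the largest among members in these cells but whose groups overlapped.

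The remaining roles had small values in these cells. The costimulatory members were split 8 negative to 7 positive, between -0.14 (Tnfrsf14) and 0.23 (Cd40), and the 11 ligands lay between -0.14 (Tnfsf13b) and 0.21 (Fasl). Tnfrsf11b differed by -0.15 ± 0.062 (SE, n = 3 per group), the smallest unadjusted limma p of a member here at 0.0583 and the opposite sign to aorta.

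The count of members in CD115+ cells depended on single preparations. Without double-deficient replicate 1, 7 members had an unadjusted p under 0.05: Tnfrsf13b, Tnfrsf23, Tnfrsf13c, Tnfrsf26, Fasl and Cd40 were higher in value and Tnfrsf12a lower. None passed the adjusted threshold (smallest 0.138 by limma), and 16.2% of all genes then had an unadjusted p under 0.05. Without double-deficient replicate 3 there were 4 others, all lower in value: Tnfrsf1a (-0.39), Tnfrsf1b (-0.62), Tnfrsf11b (-0.19) and Tnfrsf21 (-0.55), beside 4.17% of all genes. With double-deficient replicate 2, control replicate 1 or control replicate 3 left out, 1 member had an unadjusted p under 0.05, beside 3.14%, 3.76% and 3.21% of all genes. The pooled preparations were all controls, so pooling and genotype cannot be fully separated in these cells. Among the single preparations alone (3 against 1), 1 member, Tnfsf13b, had an unadjusted p under 0.05, with a difference of -0.37 ± 0.099, beside 2.28% of all genes. Its error rests on the spread of the 3 double-deficient preparations, and the lone control is assumed to vary like them.

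The genotype differences of the 2 tissues were compared directly. No member passed the adjusted threshold for the difference between tissues (smallest 0.558 by limma). Of the 36 members, 8 had an unadjusted p under 0.05, beside a background of 6.9% of all genes. That count was 4 without control CD115+ replicate 4 and 5 without double-deficient CD115+ replicate 2. The share of all genes was not counted in those fits. The 8 members are the same 8 as in aorta and rest on the same aorta arrays, so they are no separate result. The sign was opposite in the tissues for 19 of the 36 members, and this was not counted over all genes. Tnfrsf13c, the BAFF receptor, had a difference larger in CD115+ cells than in aorta by 1.45 ± 0.46 (SE), from -1.15 in aorta to 0.31 in CD115+ cells. For Cd27 the change was 1.30 ± 0.35, from -1.20 to 0.098, and for Ngfr -0.91 ± 0.26, from 0.84 to -0.064. Tnfsf8, the ligand of CD30, followed with 0.71 ± 0.34, from -0.62 to 0.094. In the CD115+ preparations, Cd27 read -0.10, 0.018 and 0.34 in double-deficient cells and -0.018, -0.076 and 0.054 in the controls. Ngfr read -0.0019, 0.0019 and -0.14 against -0.10, 0.053 and 0.10, and Tnfsf8 read 0.049, -0.011 and 0.011 against 0.014, -0.15 and -0.10. The groups overlapped for each of them. Tnfrsf11b went from 0.26 to -0.15, a change of -0.40 ± 0.091 with the smallest p of all members.

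Relatives outside the symbol rule were described by the same fit. Of 7 (Tnf, Lta, Ltb, Ltbr, Eda, Edar and Relt), 6 had negative differences in aorta and 3 an unadjusted p under 0.05, which 7.72% of all genes had. Both counts include Ltbr, whose lower value follows from its deletion in the test group. Besides Ltbr, those at an unadjusted p under 0.05 were its ligand subunit Ltb (-2.66 ± 0.67), which lymphocytes express, and Lta, lymphotoxin alpha (-0.51 ± 0.22). Relt, an orphan receptor, differed by -0.21 ± 0.13, and Tnf, the founding ligand, by -0.23 ± 0.26. In CD115+ cells Ltb differed by 1.20 ± 0.63.

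Downstream of the receptors, 17 genes of TRAF proteins and their adaptors and regulators were measured. In aorta 14 had negative differences (median -0.21), as had 10462 of all 22180 genes, and 3 had an unadjusted p under 0.05 (7.72% of all genes), none past the adjusted threshold. These were the TRAF-bound ubiquitin ligases Birc2 (-0.39 ± 0.12) and Birc3 (-0.57 ± 0.24) and the NF-kB inhibitor Tnfaip3 (-0.62 ± 0.23). In CD115+ cells 12 of the 17 had positive differences (median 0.078), as had 9924 of all 22180 genes (median -0.011). Of the 17, 3 had an unadjusted p under 0.05, beside 4.39% of all genes: Traf5 (0.56 ± 0.21), the adaptor Traf3ip2 (0.36 ± 0.11) and Tnfaip3 (0.70 ± 0.28).

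NF-kB subunits, inhibitors and kinases were split in aorta, with 9 of 14 negative and a median of -0.055. Over all 22180 genes, 10462 were negative, with a median of 0.0083. Relb, the subunit through which LTbR, CD40 and the BAFF receptor signal in the non-canonical pathway, differed by -0.32 ± 0.11. The kinase scaffold Ikbkg differed by 0.44 ± 0.16. For both genes the groups did not overlap, which was so for 2 of the 14 (14.3%) and for 4.3% of all genes. In CD115+ cells 12 of 14 were positive (median 0.15), as were 9924 of all 22180 genes (median -0.011). None of the 14 had an unadjusted p under 0.05, beside 4.39% of all genes. The lymphocyte marker means given above differed with the same sign as the median of the TRAF list in each tissue, and their part in it was not tested.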

How the data were processed

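Labelled cDNA was made from 1 ng of RNA per sample (whole-transcript amplification, biotin), per the labels' protocols. The values deposited by the authors cover 33793 probe sets and 14 arrays and were read here as log2. Neither log base nor array normalization is given in the sources used here, and centring per probe set within each tissue removed all levels. No detection call was used, and the number of arrays limits the precision. A platform annotation gave 23521 probe sets 1 gene symbol. The 1814 with several symbols and the 8458 with none listed were left out. Probe sets were averaged to 22180 genes, of which 1082 had more than 1.

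Genes were fitted in each tissue apart, and in 1 fit of 4 group means for the difference between tissues, with limma 3.58.1 in R 4.3.3 (lmFit, eBayes, two-sided, Benjamini-Hochberg over all genes). Exact permutation tests were two-sided. The labels do not say whether each aorta is 1 mouse, so p-values measure the spread between samples. The fits were tested on simulated data. Members, gene lists and roles were chosen with earlier results of these data known.

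Values in every sample are given for members with an unadjusted p under 0.05 or with groups that do not overlap, and for the 4 of largest difference between tissues. Pathway lists name at most 4 genes each. Tnf and the values per preparation of Tnfrsf26, Tnfrsf1a, Tnfrsf1b, Tnfrsf21, Tnfrsf17, Cd40 and Tnfrsf13b in CD115+ cells were added, chosen after their values were seen.

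Alternatives were the probe set of largest SD, robust empirical Bayes, array weights, quantile normalization, centring of arrays, the replicate number as a block, each replicate left out and, added after seeing the data, single CD115+ preparations only. Same-numbered samples did not deviate together throughout (correlations from -0.15 to 0.17 in aorta, -0.47 and -0.29 in CD115+ cells), so numbers were not taken as pairs. The RefSeq gene table (GRCm38.p6) served for names and neighbours.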

Additional observations from a re-analysis of the deposited data

Results flagged for a closer look

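A sample was singled out where its gap to the nearest of the other 3 in its group, divided by the whole range of the group, was above Dixon's critical value for 4 samples. Of 72 groups of aortas tested for the members, 3 were past it, and chance alone gives about 1 in 20. The RANK receptor gene Tnfrsf11a read 0.33 in ApoE-deficient aorta replicate 1, while the other 3 lay between -0.0096 and 0.032. Tnfsf15, which encodes a ligand of the receptor Tnfrsf25, read 0.67 in double-deficient aorta replicate 2, while the others lay between -0.0023 and 0.021. It also read 1.12 in ApoE-deficient aorta replicate 2, while the others lay between -0.25 and -0.017.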

How the results depend on the processing

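The 8 members named in aorta kept their sign in all 14 alternatives, and Tnfrsf23 kept its sign in all 13 run in CD115+ cells. Between tissues, Tnfrsf11b, Cd27, Ngfr and Tnfrsf13c kept theirs in all 19. Several of these settings could not change a sign. Each member has 1 probe set, and robust empirical Bayes leaves the differences as they are. Groups that do not overlap also keep their sign with any 1 replicate left out, as for Tnfrsf23 and 6 of the 8 in aorta. No member passed the adjusted threshold by limma in any alternative of any comparison. In aorta 1 gene of 22180 passed it as reported, 0 with the probe set of largest SD, with robust empirical Bayes and with array weights, and 0 to 74 with 1 replicate left out (74 without ApoE-deficient replicate 3). With 1 replicate left out, 6.34% to 9.79% of all genes in aorta had an unadjusted p under 0.05. Members at such a p in aorta then numbered 6 to 8, and the median over members ran from -0.085 to 0.0067. In CD115+ cells such members numbered 1 with array weights and 1 with single preparations only, against 0 as reported, and 0 to 7 with 1 replicate left out, when the median ran from -0.019 to 0.011. The 7 in CD115+ cells came without double-deficient replicate 1, when 16.2% of all genes had an unadjusted p under 0.05. For the difference between tissues, leaving out 1 replicate gave 0 to 58 genes past the adjusted threshold (58 without double-deficient CD115+ replicate 1, 30 without ApoE-deficient aorta replicate 3). Members at an unadjusted p under 0.05 then numbered 4 to 10, and the share of all genes at that p was not counted. The cause of these shifts was not tested. With the replicate number as a block, 7 members in aorta and 0 in CD115+ cells had an unadjusted p under 0.05, against 8 and 0 as reported. The share of all genes was not counted with the block. Cd40lg was the member lost, and no adjusted call of a member changed. Levels lost by centring prevent any check of signal over background.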

Other observations

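Probe sets with several gene symbols were not members, and 2 of them carry family symbols. The probe set shared by Tnfsf12 (TWEAK), Tnfsf13 (APRIL) and their fusion transcript Tnfsfm13 differed by 0.18 in aorta (exact permutation p = 0.286, n = 4 per group) and by -0.18 in CD115+ cells (exact permutation p = 0.3, n = 3 per group). APRIL and TWEAK therefore have no value of their own here. A probe set shared by Tnfrsf18 and Gm16008 differed by -0.33 in aorta (exact permutation p = 0.2, n = 4 per group), beside -0.36 for the probe set of Tnfrsf18 alone, and by -0.14 in CD115+ cells (exact permutation p = 0.5, n = 3 per group), beside 0.092.

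Many family genes are neighbours in the genome: 14 of the 36 members have another member at most 1 protein-coding gene away. Their aorta values stand side by side here. The ligand genes Tnfsf8 and Tnfsf15 are adjacent and differed by -0.62 and -0.028. Tnfrsf18 and Tnfrsf4, also adjacent, differed by -0.36 and -0.11, and Tnfrsf8 and Tnfrsf1b by -0.072 and -0.25. Fasl, Tnfsf18 and Tnfsf4 lie in a row and differed by -0.015, -0.020 and 0.088.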
